A study of Mus musculus with 17 samples.

Results

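Ajuba and 9 core genes of the Hippo pathway were examined in the gastrocnemius, a fast calf muscle, of 17 male mice. The members were chosen by name: the LIM-domain scaffolds Ajuba and Limd1, the kinases Lats1 and Lats2, the coactivators Yap1 and Wwtr1 (whose protein is usually called Taz), and the DNA-binding factors Tead1, Tead2, Tead3 and Tead4. All 10 symbols were found once among the 45777 genes listed, and all 10 were among the 16731 genes that passed the filter on low counts. The Mature group (n = 7, called young mice in the sample labels) started at 8 weeks of age and ended at 21 weeks on the AIN-93G control diet. The Middle-aged group (n = 6, called aging mice in the labels) started at 48 weeks and ended at 61 weeks on the same diet. The ALL mice (n = 4) were as old as the Middle-aged mice and ate AIN-93G with 3% allulose, a low-calorie sugar, in place of cellulose for 12 weeks. All mice were C57BL/6J without any engineered allele (the labels write C56BL/6J), each library came from 1 mouse, and the study used males only. The ages are those of the study's methods, whereas the labels give 8 weeks and 12 months.

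The Hippo pathway restrains growth. In its core, Lats1 and Lats2, once activated by upstream kinases, phosphorylate Yap1 and Wwtr1, which are then held in the cytoplasm or degraded. When the kinases are inactive, both coactivators enter the nucleus and activate transcription with Tead factors, which bind MCAT elements in many muscle genes. Ajuba and Limd1 bind the Lats kinases and limit their activity. Phosphorylation, protein location and protein amount are not visible in RNA counts. In skeletal muscle the pathway is known for its part in fibre size and in the proliferation of satellite cells, the stem cells of muscle.

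Libraries held 49774656 to 63970155 counts (Mature), 61832304 to 72640511 counts (Middle-aged) and 64018538 to 70544150 counts (ALL). Transcripts of the mitochondrial genome took 15.2% to 23.5% of the counts, and the share was 20% or more in 3 Mature (1, 2 and 3), 3 Middle-aged (1, 3 and 4) and 1 ALL library (1). These 7 libraries stood apart in all 3 groups, and results that rest on them are given with and without them. Myofibre markers were high in every library (summed level 105435 to 143641 CPM, the count of a gene scaled to the library total), whereas 4 hepatocyte markers summed to at most 0.471 CPM, with Ttr and Fgb at 0 in all mice. This was checked because one label names adipose tissue and liver as the source of the RNA while the others name gastrocnemius.

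The members differed widely in abundance. On the deposited TPM scale, which is per transcript length and so allows genes to be compared, the mean level over the 17 mice was 36.0 ± 6.26 (SD) for Tead1 and 35.0 ± 3.57 for Limd1. Yap1 followed at 18.9 ± 2.09, Wwtr1 at 9.39 ± 1.30, Lats1 at 6.55 ± 0.962 and Lats2 at 5.84 ± 0.606 TPM. The least abundant members were Tead3 (3.95 ± 0.589), Tead4 (2.74 ± 0.684), Ajuba (0.927 ± 0.326) and Tead2 (0.848 ± 0.291 TPM). In this order the ranges over mice overlapped between Tead1 and Limd1, between Wwtr1, Lats1 and Lats2, between Tead3 and Tead4, and between Ajuba and Tead2. Other neighbours did not overlap. Tead1 was thus the main Tead transcript and Limd1 the main transcript of the LIM pair. Ajuba rested on 71 to 192 counts per library and Tead2 on 36 to 106, against 9328 to 20577 for Tead1, so the values of Ajuba and Tead2 carry the largest counting error.

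Ajuba lies on the minus strand at chr14:54567469-54577661 (GRCm38.p6, the patched mm10 assembly) and overlaps no other annotated gene there. Lats1 overlaps Pcmt1, Lats2 overlaps Gm26440 and Gm52140, and Wwtr1 overlaps Gm16016. The library kit keeps strand, but whether the counting used it is not given in the sources used here, so reads in the overlaps cannot be assigned with certainty. RefSeq promoter windows, from 250 bases before to 50 after a start site, were matched for 7 of the 10 members: Ajuba, Lats1, Lats2, Yap1, Wwtr1, Tead2 and Tead3. The windows were searched on both strands for CATTCC, the core of the MCAT element bound by Tead factors (GGAATG on the other strand). The 250 bases before the Ajuba start site, chr14:54577662-54577911 on the minus strand, are shown with both matches in capitals because no other member with 1 window had more than 1 match.
Ajuba: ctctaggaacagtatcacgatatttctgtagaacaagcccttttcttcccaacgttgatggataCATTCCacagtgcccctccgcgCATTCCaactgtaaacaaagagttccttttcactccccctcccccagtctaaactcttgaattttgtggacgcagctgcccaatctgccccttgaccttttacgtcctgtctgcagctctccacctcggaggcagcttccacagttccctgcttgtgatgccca
The matches start 186 and 164 bases before the start site. A match was present in 14.7% of all 32851 windows, and 2 or more in 1.36%. By gene, 5 of the 7 members held 1 (71.4%, against 16.6% of 27025 genes), while Lats1 and Tead2 held none. The nearest bases around the match of the coactivators and of Lats2 are given for comparison, with the match in capitals.
Yap1 (chr9:8004720-8004749, minus strand): cgggagtctgcaGGAATGtagcgacgcgca
Wwtr1 (chr3:57576029-57576058, minus strand): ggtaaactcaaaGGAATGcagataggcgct
Lats2 (chr14:57746102-57746131, minus strand): cgtgacgcccgtGGAATGccaacaatgtag
Tead3 had 4 matches over its 3 windows, and 1 of these windows held 3, more than that of Ajuba. Of the 11 windows of members, 2 held 2 or more matches. CACCC, a short motif of Kruppel-like factors, was found once in the Ajuba window, where it did not overlap either CATTCC match, and in 57.5% of all windows. A letter match describes the sequence only and shows no binding.

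**Figure D1:**
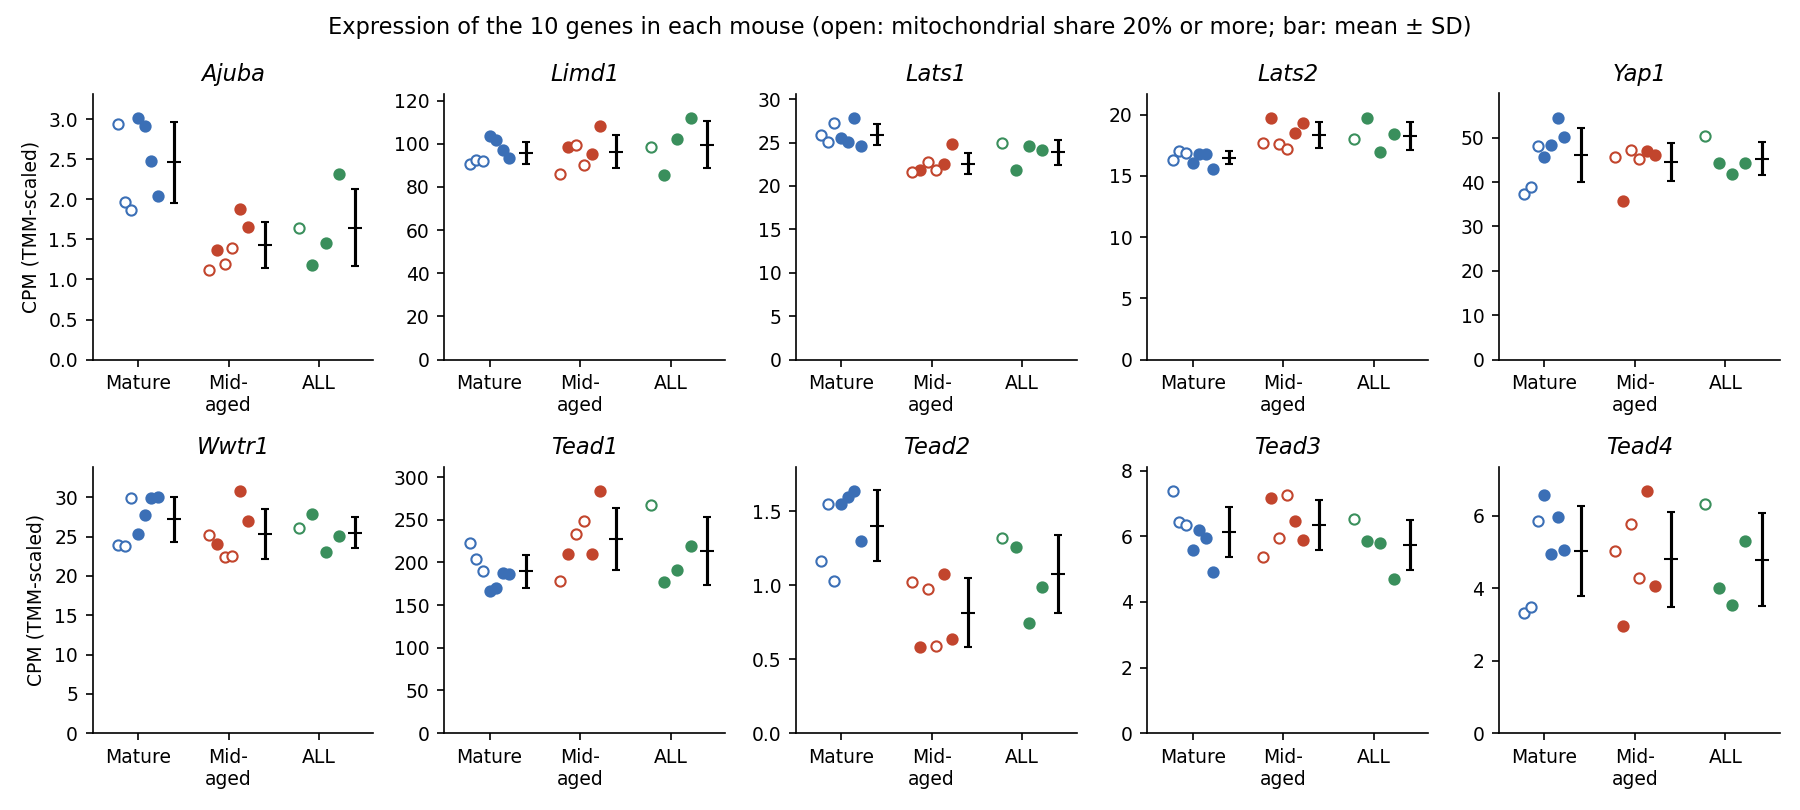
Expression of the 10 members in each mouse, as CPM after TMM scaling (y axis from 0), with the mean and SD beside each group and open points for libraries with a mitochondrial share of 20% or more. Ajuba and Tead2 sit lower in Middle-aged than in Mature mice with slight overlap, and Lats2 is the member whose 2 groups do not overlap.

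The first comparison asked which members differ with age on the control diet. Muscle of Middle-aged mice held less Ajuba, Lats1 and Tead2 RNA than that of Mature mice, down to 0.584, 0.873 and 0.580 of the Mature level. No member passed the test as higher. Thus 3 of 10 members passed the test (edgeR's quasi-likelihood test over all genes, Benjamini-Hochberg false discovery rate, FDR, under 0.05), beside 10.3% of all genes tested of which 5.54% were lower and 4.75% higher. The study had already reported Ajuba as lower in Middle-aged mice of this series, so its call is not independent of the choice of members. The median log2 fold change (logFC) of the 10 members was −0.06, and that of all genes was 0.0096. In bulk muscle, fewer cells of a type and less RNA per cell cannot be told apart.

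Ajuba counts were 102 at the lowest, 160 at the median and 192 at the highest in Mature mice. In Middle-aged mice they were 71, 90.5 and 140. After scaling, Mature mice spanned 1.86 to 3.02 CPM and Middle-aged mice 1.12 to 1.88 CPM. The groups met only at Middle-aged 5, which was just above Mature 3, and the other 5 Middle-aged mice were below every Mature mouse. Mature mice had a mean of 2.46 ± 0.503 CPM (SD, n = 7), against 1.43 ± 0.289 CPM (SD, n = 6) for the older mice. The logFC was −0.78 (SE 0.175, 95% interval −1.14 to −0.41, edgeR adjusted p = 0.00745).

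Ajuba was lower in Middle-aged mice in libraries of either mitochondrial class, but the call depended on the libraries used. Without the 7 libraries at 20% or more the logFC was −0.68 and the call was lost (edgeR adjusted p = 0.167), and in those 7 alone it was −0.89 (adjusted p = 0.0466). With the class as a factor in the fit of all mice it was −0.77 (adjusted p = 0.0053). Within Mature, mean Ajuba was 2.26 CPM in the 3 libraries at or above 20% and 2.61 CPM in the other 4. Within Middle-aged it was 1.23 CPM in 3 and 1.63 CPM in 3. Ajuba was therefore lower in the higher mitochondrial class of both groups, and the part of this in the result was not tested. With any single mouse left out, the logFC stayed between −0.88 and −0.73 with adjusted p from 0.00415 to 0.0195.

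Limd1, the closest relative of Ajuba among the members, was at 95.9 ± 5.09 CPM in Mature and 96.3 ± 7.68 CPM in Middle-aged. Its logFC was 0.0050 with a 95% interval of −0.13 to 0.14, so a fall of the size of that of Ajuba lies outside the interval. Of the 4 other LIM proteins of the Ajuba and zyxin families (Wtip, Zyx, Lpp and Trip6), none passed the test (logFC −0.06 to 0.25, and 0 of 4 at an unadjusted p under 0.05).

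The 2 kinases had differences of opposite sign. Lats1 was at 24.6, 25.5 and 27.9 CPM (lowest, median, highest) in Mature and at 21.7, 22.2 and 24.8 CPM in Middle-aged. A single Middle-aged mouse, replicate 6, reached the Mature range. Its logFC was −0.20 (SE 0.0511, edgeR adjusted p = 0.0181). The call on Lats1 was lost when libraries were scaled by their totals alone (−0.18, adjusted p = 0.0622), without the libraries at 20% or more (−0.16, adjusted p = 0.347) and in those alone (−0.25, adjusted p = 0.0639). Lats2 was at 15.5, 16.8 and 17.1 CPM in Mature and at 17.2, 18.1 and 19.8 CPM in Middle-aged. All 6 Middle-aged mice were above all 7 Mature mice, a separation shown by 1 of 10 members and by 4.04% of all genes in either direction (1.83% higher). Its logFC of 0.15 (SE 0.0508) did not pass the test (edgeR adjusted p = 0.0619). Lats2 passed with DESeq2 (adjusted p = 0.0482), with mitochondrial share as a covariate (0.0485) and without ALL replicate 2 (0.0489). It did not pass in 9 of 11 alternatives and in 16 of 17 leave-outs, and its logFC ran from 0.05 to 0.23 over all of these. In libraries at 20% or more, mean Lats2 was 16.7 CPM in Mature and 17.5 CPM in Middle-aged. In the other libraries it was 16.3 and 19.2 CPM. Whether the kinases differed from each other was not tested.

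The coactivators did not pass the test. Yap1 was at 46.1 ± 6.12 CPM in Mature and 44.5 ± 4.30 CPM in Middle-aged (logFC −0.05, 95% interval −0.23 to 0.13). Wwtr1 was at 27.2 ± 2.86 and 25.3 ± 3.17 CPM (logFC −0.10, 95% interval −0.28 to 0.07). A halving or doubling of either transcript lies outside these intervals.

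Among the Tead factors, the rarest fell and the most abundant did not pass the test. Tead2 counts were 63, 92 and 106 (lowest, median, highest) in Mature and 36, 55 and 80 in Middle-aged. On the CPM scale the ranges were 1.03 to 1.64 and 0.584 to 1.08, so that they overlapped through Mature 3 and Middle-aged 5. Its logFC was −0.79 (SE 0.194, edgeR adjusted p = 0.0133). The call on Tead2 was also lost without the libraries at 20% or more (−0.99, adjusted p = 0.0775) and in those alone (−0.54, adjusted p = 0.274). Tead1 was at 166 to 223 CPM in Mature and 178 to 284 CPM in Middle-aged (logFC 0.26, unadjusted p = 0.0247, edgeR adjusted p = 0.134). Tead3 (logFC 0.05, SE 0.10) and Tead4 (−0.07, SE 0.194) had intervals on both sides of 0. In all, 5 of 10 members had an unadjusted p under 0.05, beside 24.3% of all genes.

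**Figure D2:**
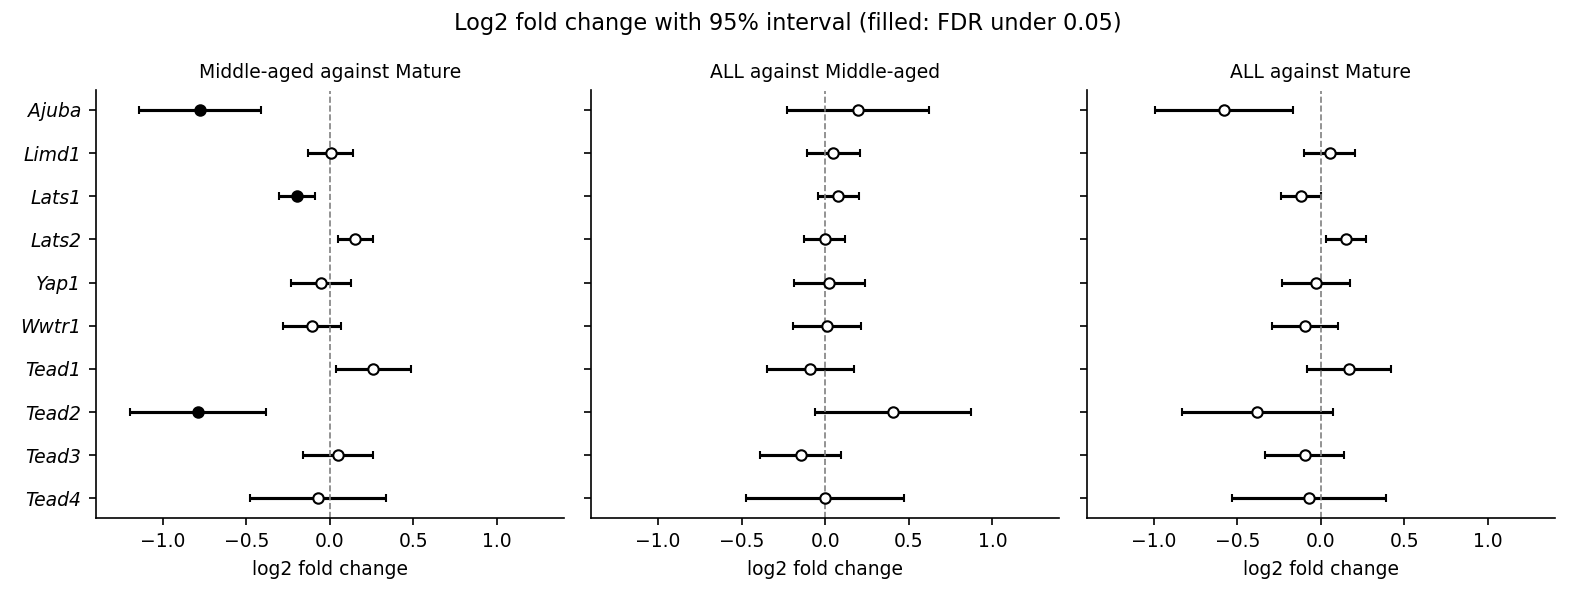
Log2 fold change of each member in the 3 comparisons with its 95% interval (x axis, log2 scale), filled where the FDR was under 0.05. Filled points are seen only for Ajuba, Lats1 and Tead2 in Middle-aged against Mature, and the interval of Ajuba in ALL against Middle-aged runs from −0.23 to 0.62.

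Allulose was compared with the control diet in mice of the same age. No member passed the test in ALL against Middle-aged, where edgeR called 0 of 16731 genes (0% of all genes). DESeq2 called 2 genes and no member. At an unadjusted p under 0.05 there were 0 of 10 members, beside 603 genes or 3.6% of all. No member had groups that did not overlap (0.478% of all genes did).

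Ajuba counts in the 4 ALL mice were 108, 83, 92 and 157. The scaled levels were 1.64, 1.18, 1.46 and 2.31 CPM, with a mean of 1.65 ± 0.483 CPM (SD, n = 4). ALL replicates 1, 2 and 3 were within the Middle-aged range, and ALL 4 alone was above it. The logFC was 0.20 with a 95% interval of −0.23 to 0.62 (unadjusted p = 0.342, edgeR adjusted p = 1). Without ALL 4 it was −0.011, so the positive sign rested on that mouse. The interval includes no change and a 1.5-fold increase alike, and the data do not tell these apart.

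Tead2 was at 1.32, 1.26, 0.746 and 0.987 CPM in the ALL mice. ALL 1 and ALL 2 were above the highest Middle-aged mouse, and the other 2 were within its group. The logFC was 0.41 (95% interval −0.06 to 0.87, unadjusted p = 0.0841, edgeR adjusted p = 1). Lats1 was at 24.9, 21.8, 24.6 and 24.1 CPM in ALL (logFC 0.08, SE 0.0591). The 7 other members had logFC from −0.15 (Tead3) to 0.05 (Limd1). Lats2 was at 18.3 CPM on average in both groups (95% interval of the logFC −0.13 to 0.12).

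The study ranked genes by an effect score, which divides the size of the age difference in logFC by the size of the difference between a diet and Middle-aged. The score that the study printed for Ajuba with allulose was lower than that of the fit used here, and the reason was not tested. In this fit the ratio for Ajuba and ALL was 3.94. Its denominator is not distinguishable from 0, and without ALL 4 the score was 75.0, while without ALL 2 it was 2.36. With the libraries at 20% or more left out it was 45.6, and with ALL against Mature in the denominator it was 1.34. A smaller response to the diet gives a higher score by this formula. The 2 comparisons share the Middle-aged mice, so the parts of the ratio are not independent.

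**Figure D3:**
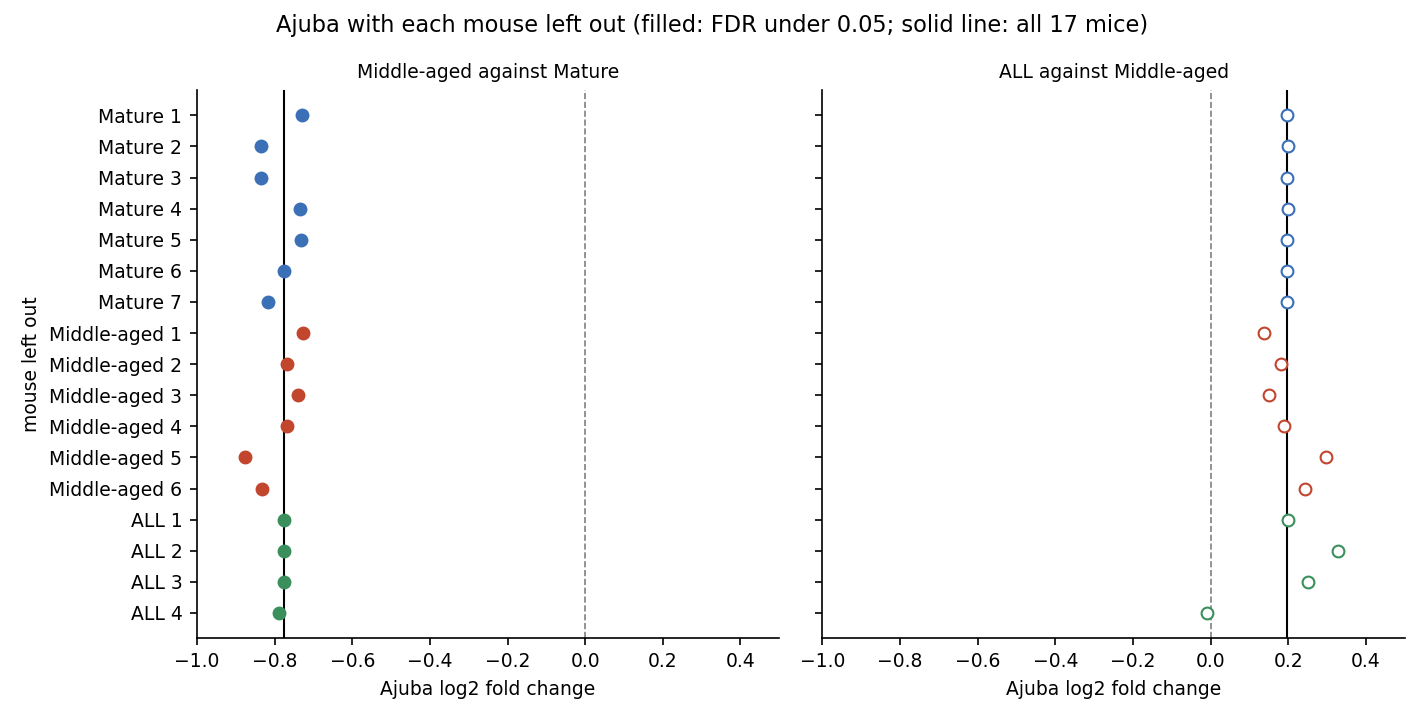
Ajuba log2 fold change (x axis) with each of the 17 mice left out in turn (y axis), filled where the FDR was under 0.05, with the value of all mice as a solid line. Against Mature the values stay between −0.88 and −0.73 and all are filled, whereas ALL against Middle-aged reaches −0.011 once ALL 4 is left out.

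ALL and Mature mice differ in both age and diet. In this comparison edgeR called 0 of 10 members, beside 6.5% of all genes, and 2 of 10 had an unadjusted p under 0.05 (22.7% of all genes). No member had groups that did not overlap, beside 6.04% of all genes. Ajuba was lower in ALL with a logFC of −0.58 (95% interval −0.99 to −0.17) that did not pass the test (edgeR adjusted p = 0.0845). It passed with DESeq2 (adjusted p = 0.045), with mitochondrial share as a covariate (0.0496) and without ALL 4 (0.0365). It did not pass in 9 of 11 alternatives and in 16 of 17 leave-outs, and its logFC ran from −0.80 to −0.45 over all of these. Of the 2 members with an unadjusted p under 0.05, the other was Lats2, with a logFC of 0.15 (edgeR unadjusted p = 0.017, adjusted p = 0.122). Since ALL and Middle-aged are compared with the same Mature mice, these values are not independent of those given for Middle-aged.

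The other genes of the pathway were counted against the same share over all genes, 10.3% called with age (5.54% lower and 4.75% higher). Of 16 upstream kinases and adaptors, 15 were tested (Wwc1 was not), 1 was lower in Middle-aged mice and 14 were not called. The count was 2 with DESeq2 and without Mature 1 or Middle-aged 1, and 3 without Middle-aged 5. Map4k4, a kinase that phosphorylates the Lats kinases, was at 16.9 to 21.7 CPM in Mature and 11.0 to 13.4 CPM in Middle-aged, with no overlap (logFC −0.65, edgeR adjusted p = 1.22e-05). It stayed at 11.3 to 12.9 CPM in ALL. The related kinase Mink1 had a logFC of 0.19 (adjusted p = 0.0689) and the scaffold Rassf1 one of −0.21 (adjusted p = 0.119). Stk3 and Stk4, the mammalian Hippo kinases, had logFC of 0.09 and −0.02 with age. Of 9 genes of STRIPAK, the phosphatase complex that opposes these kinases, 1 was higher: Strn3, a striatin subunit (logFC 0.18, adjusted p = 0.037). That call was lost in 11 of 17 fits without 1 mouse (adjusted p up to 0.115) and in 7 of 11 other alternatives (up to 0.445, without the libraries at 20% or more mitochondrial share), which leaves 0 of 9.

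Of 7 junction scaffolds and cadherins that act on Yap1, 2 were lower in Middle-aged mice and 5 were not called, beside 5.54% lower over all genes. Tjp1, a tight junction scaffold, was at 28.2 to 37.2 CPM in Mature and 17.8 to 22.5 CPM in Middle-aged, with no overlap (logFC −0.70, edgeR adjusted p = 8.99e-06). The large cadherin Fat4 had a logFC of −0.66 (adjusted p = 0.00381), and its groups overlapped. In ALL against Middle-aged, Tjp1 had a logFC of 0.22 (unadjusted p = 0.0161, adjusted p = 1). The median logFC of the 7 genes with age was 0.04, and without the libraries at 20% or more mitochondrial share 1 of the 7 was called (Tjp1).

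None of the 7 genes of 14-3-3 proteins, which hold phosphorylated Yap1 in the cytoplasm, passed the test with age (median logFC 0.05), and 1 passed without Mature 4. The lowest p was that of Sfn (logFC 0.50, adjusted p = 0.0906), which was at 1.04 to 1.57 CPM in Middle-aged and 0.73 to 0.993 CPM in ALL without overlap (logFC −0.53, unadjusted p = 0.0247, adjusted p = 1). Of the Vgll cofactors, which bind Tead factors in place of Yap1, 3 were tested and none passed. Vgll4, an inhibitor of Tead activity, had a logFC of 0.44 (adjusted p = 0.12). It passed without the libraries at 20% or more mitochondrial share (logFC 0.84, adjusted p = 0.0186), whereas in those libraries alone its logFC was −0.0409 (adjusted p = 0.911). Vgll2, the muscle member, had a logFC of 0.09 and Vgll3 of −0.16.

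The target genes of Yap1 and Wwtr1 gave no common direction. The list of 21 genes was drawn from a readout used in cultured human cells, and its use for mouse muscle is an assumption. Lats2, which is among the members, was not on this list. With age, 2 of 21 were higher, 0 were lower and 19 were not called, beside 10.3% of all genes called, and the median logFC was 0.09. The signs were 12 above and 9 below 0. Arhgef17, a guanine nucleotide exchange factor, was at 46.2 to 59.7 CPM in Mature and 54.0 to 77.5 CPM in Middle-aged (logFC 0.32, edgeR adjusted p = 0.0103). Tgfb2, a growth factor, had a logFC of 0.33 (adjusted p = 0.0238). Foxf2, a transcription factor, was barely detected (at most 8 counts in a Mature mouse and 4 to 27 in the older group), and Rbms3, an RNA-binding protein, had a logFC of −0.43 (adjusted p = 0.0711). The number called depended on the fit: DESeq2 gave 3 higher and 1 lower, scaling by library totals 1 and the libraries under 20% mitochondrial share 0.

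The most used targets were also looked up, a choice made after values were seen. Ccn2 and Ccn1, matricellular proteins, had logFC of −0.03 and 0.47 with age (edgeR adjusted p = 0.933 and 0.112), and Ankrd1, a sarcomere-associated ankyrin protein induced by stretch, had 0.43 (adjusted p = 0.36). In ALL against Middle-aged, 0 of 21 targets passed, with a median logFC of −0.12 and 13 of 21 below 0. The lowest p values were those of Ccdc80, a secreted matrix protein (logFC −0.53, unadjusted p = 0.0146), and Amotl2, an angiomotin that binds Yap1 (logFC −0.28, unadjusted p = 0.0476), both with adjusted p = 1. In ALL against Mature, 2 targets were higher (Arhgef17 and Tgfb2) and 2 lower (Ccdc80 and Rbms3), beside 3.32% and 3.18% of all genes.

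Of 7 muscle genes with MCAT elements, 1 was lower with age, beside 5.54% of all genes, and 6 of 7 had a logFC below 0 (median −0.22). Actc1, cardiac actin, which is abundant in developing muscle, spanned 213 to 441 CPM in the Mature group and 12.6 to 54.1 CPM in the Middle-aged group (a fall, logFC −3.20, edgeR adjusted p = 1.23e-05) and was at 18.2 to 53.0 CPM in ALL. Acta1, the adult skeletal actin, had a logFC of −0.10 (adjusted p = 0.593). Acta2, the smooth muscle actin, had a logFC of −0.22 (adjusted p = 0.185) and Tnnt2, cardiac troponin T, one of 0.31 (adjusted p = 0.327). Myh7 and Myh6, the slow and cardiac myosin heavy chains, had logFC of −1.19 and −1.11 (adjusted p = 0.374 and 0.36).

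Of 10 genes whose proteins bind Ajuba, Snai2, a repressor that uses Ajuba proteins as corepressors, was lower with age (59 to 85 counts in the younger and 29 to 63 counts in the older mice, logFC −0.87, edgeR adjusted p = 0.00683). Aurka, a mitotic kinase activated by Ajuba, was higher (logFC 0.71, adjusted p = 0.0201). The other 8 were not called, among them Ctnna1, alpha-catenin (logFC −0.14, adjusted p = 0.0838), and Grb2, an adaptor (0.17, adjusted p = 0.0931). The 2 of 10 called stand beside 10.3% of all genes. The count fell to 1 without Middle-aged 2 or 6, where Aurka was not called (adjusted p up to 0.0533), rose to 4 without Middle-aged 5, and was 0 without the libraries at 20% or more mitochondrial share (adjusted p = 0.105 for Aurka and 0.18 for Snai2).

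**Figure D4:**
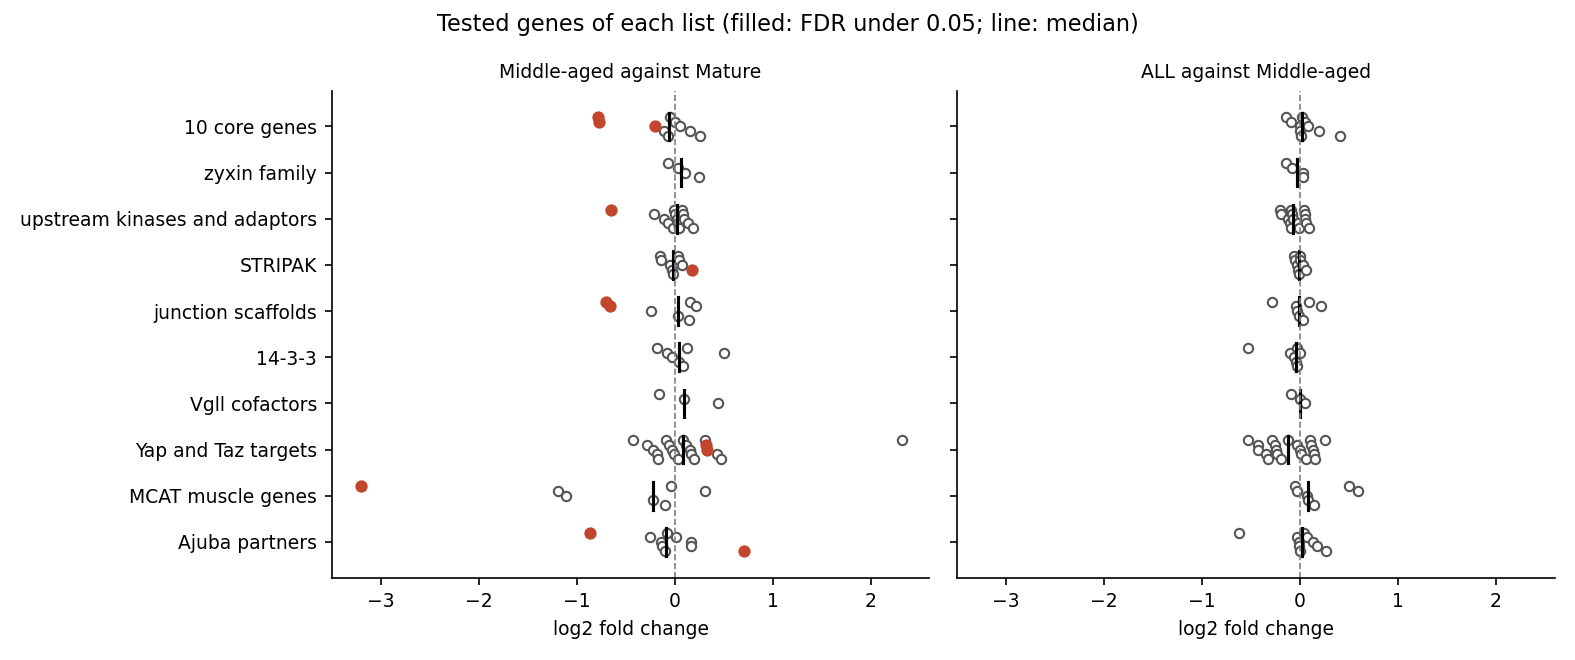
Log2 fold change (x axis) of the tested genes in each list, in 2 comparisons, with a line at the median and filled points where the FDR was under 0.05. With age the filled points are few and lie on both sides of 0 over the lists, and in ALL against Middle-aged no point is filled.

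Markers of several other cell types fell with age, as did Ajuba, Lats1 and Tead2, whereas some markers had logFC above 0. Of 8 endothelial markers 7 were lower, and their summed level was 218 to 295 CPM in the 7 Mature mice, 144 to 195 CPM in the 6 Middle-aged mice and 167 to 200 CPM in ALL. Of 6 pericyte and smooth muscle markers 5 were lower (332 to 393 CPM in the younger and 236 to 307 CPM in the older group). Of 6 Schwann cell markers 5 were lower (53.8 to 304 and 26.4 to 61.1 CPM), and 2 of 3 satellite cell markers were lower (3.50 to 5.10 and 2.56 to 3.15 CPM). Of 6 tendon and 5 fibroblast markers, 2 each were lower, while Scx of tendon and Dcn of fibroblasts had logFC of 0.47 and 0.15 (adjusted p = 0.0886 and 0.706). Of 3 lymphocyte markers tested, Igkc, an immunoglobulin light chain, was higher (0.153 to 0.376 CPM in Mature and 0.444 to 5.02 CPM in Middle-aged, logFC 3.38, edgeR adjusted p = 0.000228). The 5 macrophage markers had logFC of 0.06 to 0.66 and 0 passed. The 3 adipocyte markers had logFC of −0.55 to 0.03 with age and 0 passed. In ALL against Middle-aged their logFC was −2.47 to −2.07. There 3 of 3 had an edgeR unadjusted p under 0.05, beside 3.6% of all genes, and 0 were called. No marker of these lists other than Ttr and Fgb was at 0 in all mice, and 0 of 6 myofibre markers passed. The part of these markers in the results for the members, Map4k4, Tjp1, Fat4 and Snai2 was not tested.

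Klf4, a Kruppel-like transcription factor that the study placed above Ajuba, was higher in Middle-aged than in Mature mice. It was at 7.87, 8.91 and 10.3 CPM (lowest, median, highest) in Mature and 8.77, 12.0 and 21.2 CPM in Middle-aged (logFC 0.55, edgeR adjusted p = 0.0304). The ALL mice were at 12.7, 7.63, 8.46 and 9.15 CPM (logFC against Middle-aged −0.47, unadjusted p = 0.02, adjusted p = 1). Middle-aged 5 stood apart at 21.2 CPM. The call on Klf4 was lost without that mouse (logFC 0.35, adjusted p = 0.0669), and also without Mature 1, 2 or 3 or Middle-aged 1 (adjusted p from 0.0501 to 0.0619). It was also lost in 5 of 11 other alternatives (adjusted p from 0.051 to 0.128), among them the libraries under 20% mitochondrial share and those at or above it, each taken alone. Within groups, Ajuba and Klf4 were not shown to be related: after centring on group means, Pearson's r was 0.347 (permutation p = 0.204) and Spearman's rho 0.341 (permutation p = 0.218, n = 17, two-sided). Without the 2 mice farthest from the median of Klf4 (Middle-aged 5 and ALL 1), r was 0.116. It was 0.421 in the 10 libraries under 20% mitochondrial share and −0.321 in the other 7, centred again on the group means within each class. Among those 7, ALL was 1 mouse, which carries no information once centred on itself.

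**Figure D5:**
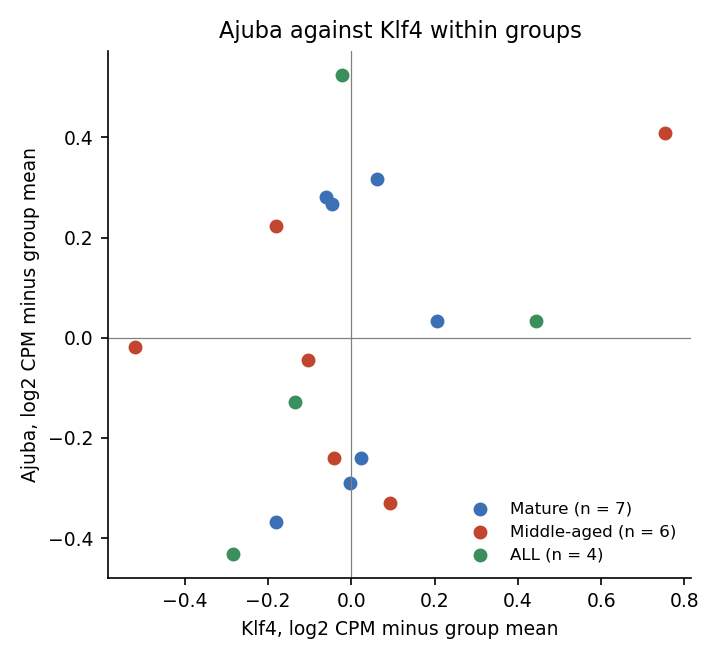
Ajuba (y axis) against Klf4 (x axis) in each of the 17 mice, as log2 CPM minus the mean of the group, with 1 colour per group. The points do not follow a line (r = 0.347), and the mouse at the far right is Middle-aged 5.

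The members were also compared with each other within groups, in 45 pairs. Pearson's r of log2 CPM centred on group means had a median of 0.0535 and ran from −0.418 (Yap1 and Tead3) to 0.817 (Yap1 and Tead4). Yap1 and Tead4 varied together (r = 0.817, permutation p = 0.00044, adjusted over the 45 pairs 0.0198; rho = 0.75, permutation p = 0.00115, adjusted 0.0518). Without the 2 mice farthest from the median of Yap1 (Mature 1 and Middle-aged 2), r was 0.687, and it was 0.703 and 0.967 in the libraries under and over the 20% share. Ajuba and Limd1 had an r of 0.674 (permutation p = 0.00979, adjusted 0.22) and a rho of 0.603 (permutation p = 0.0221, adjusted 0.27). This was 0.781 in the libraries under 20% and 0.0469 in the others. Ajuba had an r of −0.0068 with Yap1, 0.0535 with Wwtr1 and 0.0202 with Tead2. Permutations were made within groups and were two-sided. Here and in the next paragraph, values by library class kept the centring on all mice of a group, unlike those given for Klf4.

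Over 12401 other genes with an average level above 1 CPM, those most like Ajuba within groups were Dvl2 (Pearson's r 0.809), Nup93 (0.798), Trub1 (0.796), Tctn1 (0.785), Cttnbp2nl (0.775) and Dhx40 (0.768), each over 17 mice. The most opposite were Ppp2r5a (−0.819), Nudt6 (−0.817) and Lmo4 (−0.782). These are the extremes of many genes and are given as a description. None of the 9 passed the test with age, their logFC running from −0.17 (Nup93) to 0.14 (Cttnbp2nl). Their r differed between library classes, for Nudt6 from −0.944 in the 10 libraries under 20% to −0.239 in the other 7, and for Dvl2 from 0.863 to 0.488.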

How the data were processed

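Gene-level read counts of 17 gastrocnemius mRNA libraries were used as deposited by the authors, unnormalized. The deposited TPM values, per transcript length and library by the authors, served only to compare levels between genes. The processing notes name FastQC 0.11.7, Trimmomatic 0.38, HISAT2 2.1.0, featureCounts and mm10, whereas the study's methods name STAR and StringTie. Another 35 value columns were not used (18 of other mice and 17 of FPKM). Legends of the study give fewer Mature mice than the 7 labelled libraries, all of which were used.

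Groups were compared with edgeR 4.0.16 in R 4.3.3 (16731 of 45777 genes kept by filterByExpr; TMM; quasi-likelihood F test, 1 fit of all 17 mice, Benjamini-Hochberg FDR under 0.05), and figures drawn in Python 3.11.15 with matplotlib 3.10.9. CPM is scaled by TMM. Intervals are 95% and come from the fit. Total counts were 49774656 to 72640511 per library. Alternatives were DESeq2 1.42.0, scaling by library totals, no filter, the likelihood ratio test, a fit of 2 groups only, a replicate block, mitochondrial share as a covariate, and leaving out libraries at 20% or more, Mature 5 and 7 together or each mouse in turn. The mitochondrial class as a factor, the libraries at 20% or more alone and the variants of the effect score were added after the data were seen. The fits were tested on simulated data without library classes, in which only genes with an average level above 1 CPM were changed. Of 100 genes changed 1.5-fold, 80 were recovered in Middle-aged against Mature, 63 in ALL against Middle-aged and 66 in ALL against Mature. Of 100 changed 2-fold, 90, 88 and 93 were recovered. Unchanged genes gave 10, 8 and 1 false calls. Correlations were tested with 1e+05 permutations within groups.

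The members and lists were chosen with earlier results of these data known. Named genes are the members, Klf4, per list up to 4 genes with the smallest p with age and 2 with the smallest p with allulose, and the 6 most and 3 least correlated with Ajuba. Not all of them are described. One gene of the junction list is not reported here and was left out of its counts.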

Additional observations from a re-analysis of the deposited data

Results flagged for a closer look

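Groups of 4 to 10 mice were searched for 1 value far from the rest of its group by Dixon's test, for the 10 members and Klf4. Of 33 groups, 3 held such a value, and chance gives about 1 in 20. Lats1 was at 24.8 CPM in Middle-aged replicate 6, the next mouse being at 22.8 CPM. Yap1 was at 35.8 CPM in Middle-aged replicate 2, below the next at 45.1 CPM. Klf4 was at 21.2 CPM in Middle-aged replicate 5, above the next at 13.4 CPM.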

How the results depend on the processing

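Of 120 results, 49 were rated the same under every alternative and leave-out run for them (11 and 17 for most). For a logFC or the correlation this meant the same sign and side of the threshold. A number of genes called was judged by its size alone, whatever the direction of the calls. The effect score was judged by its distance from the main value, set against its propagated error. Limits of the data were the low counts of Ajuba and Tead2, the 4 ALL mice, and the libraries at 20% or more mitochondrial share. Their parts in the changes were not separated. Where a value changed, the cause was not tested, though leaving out libraries also removes mice. The logFC that changed sign passed no test.

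Without the libraries at 20% or more, the calls over all genes in Middle-aged against Mature went from 1721 to 456 (1049 in those libraries alone), no member was called (0), the Ajuba logFC was −0.68 and not called, 0 targets were called and the effect score was 45.6. In this setting logFC changed sign for Lpp (0.0254) and Vgll2 (−0.0529) with age, for Limd1 (−0.00722) and Wwtr1 (−0.11) in ALL against Middle-aged and for Klf4 (−0.15) in ALL against Mature, where 2 targets and 401 genes were called. In the libraries at 20% or more alone, 1 member was called with age, and the Ajuba and Klf4 correlation was −0.32. The ALL group there was 1 mouse (ALL 1), so every value against ALL in this setting rests on that mouse. The sign changed with age for Limd1 (−0.0104), Yap1 (0.14), Tead3 (−0.13), Tead4 (0.24), Zyx (−0.0413), Wtip (−0.11), Ptpn14 (−0.0171), Vgll4 (−0.0409) and Vgll3 (0.10). It changed in ALL against Middle-aged for Lats2 (0.0490), Tead1 (0.28), Tead3 (0.0838), Tead4 (0.34), Klf4 (0.15), Zyx (0.25), Stk4 (0.00730) and Vgll4 (−0.33), and in ALL against Mature for Yap1 (0.28), Wwtr1 (0.00700), Tead2 (0.0721) and Tead4 (0.57). The class as a factor gave −0.017 for Wwtr1 in ALL against Middle-aged.

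With DESeq2, 4 targets passed with age (1 with scaling by library totals), 1696 genes passed in ALL against Mature in place of 1087, and Ajuba passed there (−0.58), which makes 1 member. The covariate gave the same count of 1 (Ajuba −0.56) and −0.026 for Vgll2 with age. Scaling by library totals changed the sign of Yap1 (−0.00395) and Wwtr1 (−0.0258) in ALL against Middle-aged. In the fit of 2 groups it changed for Limd1 (−0.00759) with age and for Lats2 (0.000450) and Tead4 (0.00127) in ALL against Middle-aged, and without Mature 5 and 7 for Tead3 (−0.000599) and Vgll3 (0.0445) with age and Yap1 (0.0120) in ALL against Mature.

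Pairs of samples with the same replicate number had a median r of 0.0625 (14 pairs, 5 above 0.1, highest 0.235). The 80 other pairs had a median of −0.0062 (9 above 0.1, highest 0.14). The number is a running index that does not follow the mouse codes in the labels, so these values cannot decide on a pairing. It was not taken as one in the main fit. A replicate block left Ajuba called with age (−0.81, edgeR adjusted p = 0.00458) and gave 1584 calls over all genes there, and 615 in ALL against Mature. With the block, signs changed for Limd1 (−0.00101), Vgll3 (0.0113) and Vgll2 (−0.0204) with age, for Lats2 (0.0117), Tead4 (0.11) and Vgll4 (−0.00902) in ALL against Middle-aged, and for Yap1 (0.0684), Wwtr1 (0.00926) and Tead4 (0.0272) in ALL against Mature.

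With each mouse left out in turn, logFC with age ran from −0.0411 to 0.0237 for Limd1, −0.19 to 0.0337 for Tead4, −0.0542 to 0.11 for Wtip and −0.0332 to 0.23 for Vgll2, and 1 to 4 targets were called (1 without Mature 4, Middle-aged 1 or Middle-aged 5 and 4 without ALL 2). In ALL against Middle-aged it ran from −0.0105 to 0.33 for Ajuba, −0.0102 to 0.12 for Limd1, −0.0426 to 0.0304 for Lats2, −0.0318 to 0.0604 for Yap1, −0.0342 to 0.0776 for Wwtr1, −0.16 to 0.12 for Tead4, −0.0781 to 0.22 for Vgll4 and −0.25 to 1.13 for Myh7. In ALL against Mature it ran from −0.80 to −0.45 for Ajuba, −0.0169 to 0.12 for Limd1, −0.0830 to 0.0180 for Yap1, −0.23 to 0.0511 for Tead4 and −0.0894 to 0.17 for Klf4, with 0 to 1 members and 2 to 5 targets called. The effect score ran from 2.36 to 75.0.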
